A study of Mus musculus with 6 samples.

Results

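The ion, metal and phosphate transporter families examined here are the solute carrier genes named Slc4a, Slc8a, Slc9a, Slc11a, Slc12a, Slc20a, Slc26a, Slc30a, Slc34a, Slc39a, Slc40a or Slc41a followed by a number in the platform's annotation. The rule for membership uses the name and no measured value, although the families were picked with earlier results of these data known. Of the 19057 genes on the arrays, 70 met it. They were measured in mouse small intestinal organoids, epithelial structures grown in gel from intestinal crypts. The Snai1 knockout samples carried Villin-Cre with Snai1fl/fl alleles (3 arrays), and the control samples carried Villin-Cre alone (3 arrays). Both groups were exposed to 0.5 µM tamoxifen for 24 hours. Cre was driven by the villin promoter, which is active in gut epithelium. The Snai1 product is a transcriptional repressor of the Snail family that binds E-box DNA. Separate mice or cultures are not stated for arrays of one group, so every p-value below rests on the spread between samples that may be technical repeats.

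Carriers of these families set the salt, acid, metal and phosphate balance of the gut lining. Sodium-proton exchangers (Slc9a) and chloride-bicarbonate exchangers (Slc26a) of the brush border work side by side to absorb salt, while Slc12a2 on the opposite, basolateral face loads crypt cells with chloride for secretion. Dietary iron enters enterocytes through Slc11a2 and leaves them for the blood through Slc40a1 (ferroportin). Proteins of the ZIP family (Slc39a) bring zinc into the cytosol and proteins of the ZnT family (Slc30a) remove it.

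The deposited values are on a log scale taken as log2, equalised between arrays, and run from 7.71 to 14.78 with a median of 7.87 over all probes. Values near the median are compressed, so differences of dim genes are understated, and all folds assume base 2. Arrays correlated with each other at 0.994 to 0.997. Of 10 intestinal epithelial markers 8 lay above the upper quartile of all values (8.27), among them Vil1 and Cdx2, whereas Epcam and Fabp1 did not. None of 10 fibroblast and muscle, 6 leukocyte or 5 endothelial markers did. Snai1 read 7.91, 7.86 and 7.96 on knockout arrays and 7.87, 7.93 and 7.94 on control arrays with its brighter probe (exact two-sided permutation p = 0.9, smallest possible 0.1), too dim to check the labels. Replicate numbers 1 to 3 occur in both groups, and arrays of one number deviated together from their group means (r = 0.35, 0.33 and 0.46 over genes). Differences are therefore also given by pairs of equal number. The main fit leaves the number out, and fits with the number as a block are named as such.

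Of the 70 transporter genes, 25 had a mean above the upper quartile and 45 did not. No member passed the test of knockout against control over all genes (limma, Benjamini-Hochberg adjusted p under 0.05; lowest adjusted p = 0.34), where 0.131% of all genes passed (0.0367% higher and 0.0945% lower). At an unadjusted p under 0.05 there were 8 members (11.4%), 5 higher and 3 lower, against 7.22% of all genes (3.88% higher and 3.34% lower). The groups did not overlap for 10 members (14.3%), 7 of them higher in the knockout, against 12% of all genes. Among the 25 bright members 7 (28%) had an unadjusted p under 0.05, against 14.9% of the 6969 genes above the upper quartile. The median difference of the 70 members was -0.0053 on the log2 scale, beside -0.00057 over all genes. Means were higher for 32 members and lower for 38, beside 9393 and 9664 of all genes. With the replicate number as a block, again no member passed over all genes (lowest adjusted p = 0.15, limma), where 0.0472% did. With the block and only genes above the upper quartile in the fit, 4 of 25 members (16%) passed, where 3.36% of genes did (1.28% higher and 2.08% lower). Slc40a1, Slc11a1 and Slc26a6 were lower in the knockout and Slc12a9 was higher.

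**Figure D1:**
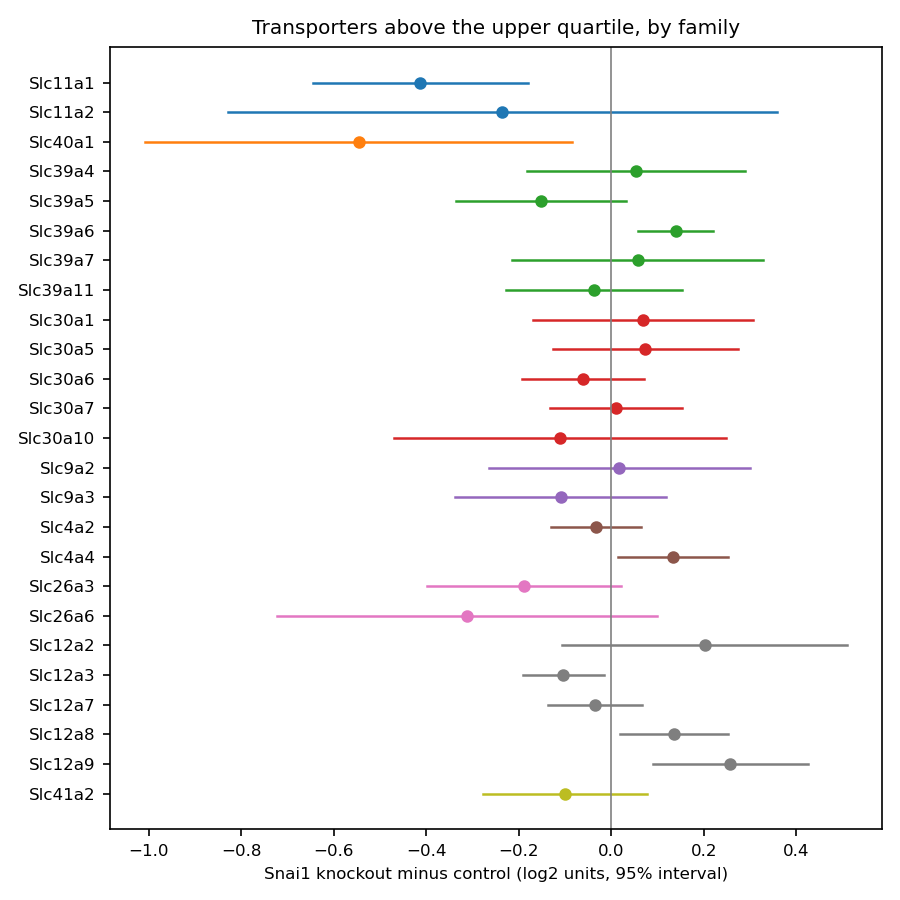
Difference between Snai1 knockout and control (x axis, log2 units, knockout minus control) for the 25 transporter genes whose mean lay above the upper quartile, grouped by family in colour. Points are differences and bars 95% intervals of the fit without replicate block. Slc40a1 lies lowest at -0.55 and Slc12a9 highest at 0.26, and most intervals cover 0.

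The iron carriers were the family with the largest differences. By their brightest probes, all 3 measured members were lower in the knockout in 3 of 3 pairs. This held for 15.2% of all genes and for 1219 of 6969 bright genes. Further probes of Slc11a2 did not repeat this. Slc40a1, the only known cellular iron exporter of mammals, read 10.08, 9.83 and 10.27 on knockout arrays and 10.40, 10.43 and 10.98 on control arrays. All knockout values lay below all control values, as they did for 5.85% of all genes and 456 of 6969 bright genes. Its mean was 10.06 ± 0.22 in knockout and 10.60 ± 0.33 in control organoids (SD, n = 3 each), a difference of -0.55 (95% interval -1.01 to -0.08, adjusted p = 0.59, limma). The pairs differed by -0.32, -0.61 and -0.71. With the block and bright genes only, Slc40a1 fell by 0.55 ± 0.08 (SE), which is 1.46-fold lower in the knockout (adjusted p = 0.00022, limma). In that fit limma draws each gene's variance strongly toward that of the other bright genes. The SE of the bright members ran only from 0.066 (Slc41a2) to 0.083 (Slc11a2). For every gene given with this fit, SE and p thus measure the shared spread more than the gene's own. Its second probe read 7.81 on average, near the bottom of the scale, where a difference of this kind could not be seen.

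Slc11a1 encodes NRAMP1, a metal transporter best known from the phagosomes of macrophages. Its brightest probe read 9.48, 9.59 and 9.49 on knockout arrays and 9.74, 10.12 and 9.94 on control arrays, again without overlap. The difference was -0.41 (95% interval -0.65 to -0.18, adjusted p = 0.34, limma), the lowest p of the 70 members. With the block and bright genes only, it fell by 0.41 ± 0.07 (SE), 1.33-fold lower (adjusted p = 0.0017, limma). The other 3 probes of Slc11a1 read 7.80 to 7.90 and differed by -0.002 to 0.018, so its value rests on 1 of 4 probes. None of the 6 leukocyte markers lay above the upper quartile. Their mean level ran from 7.83 to 7.84 on knockout arrays and from 7.83 to 7.85 on control arrays, with Ptprc, the pan-leukocyte marker, at 7.82, 7.80 and 7.81 on control arrays.

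Slc11a2 (DMT1), the importer of ferrous iron at the brush border, read 9.05, 9.72 and 9.19 on knockout arrays and 9.13, 9.80 and 9.74 on control arrays. The groups overlapped widely, and the third pair, at -0.54, differed more than the others, at -0.08 each. The difference was -0.24 (95% interval -0.83 to 0.36, adjusted p = 0.94, limma). A second probe of Slc11a2 above the upper quartile differed by -0.01, with pairs at 0.11, -0.03 and -0.11. The third probe, not above it, differed by -0.02 and was higher in 2 of 3 pairs. The probes thus give neither the same size nor the same sign in each pair.

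**Figure D2:**
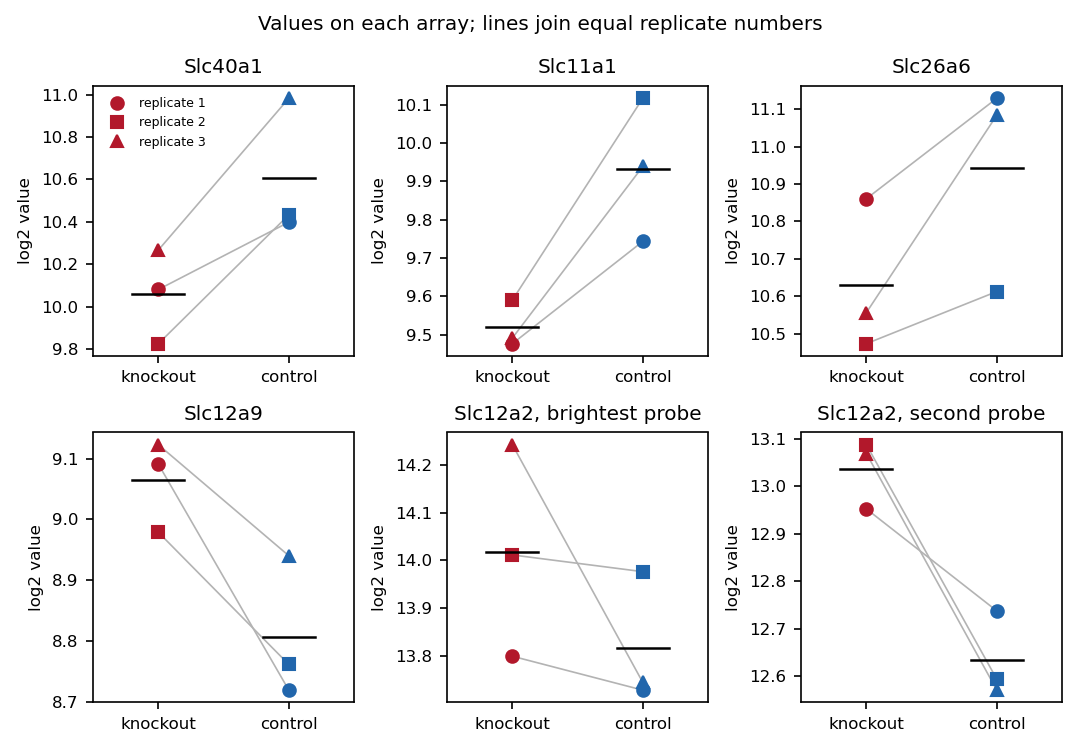
Log2 values (y axis, scaled to each panel) of Slc40a1, Slc11a1, Slc26a6, Slc12a9 and 2 probes of Slc12a2 on knockout arrays (red, left) and control arrays (blue, right). Symbols mark replicate numbers, grey lines join arrays of one number and black bars are group means. In every panel the 3 lines run the same way, and only Slc26a6 and the brightest Slc12a2 probe have overlapping groups.

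In a list of 20 other iron genes, none passed over all genes or with the block on bright genes. Of these, 15 had a higher and 5 a lower mean, beside 9393 and 9664 of all genes, with a median difference of 0.03. Slc46a1, the folate transporter of the brush border, which has also been described as taking up haem, read 9.02, 8.82 and 8.97 in knockout and 9.24, 9.16 and 9.13 in control organoids, without overlap. It was lower in 3 of 3 pairs and differed by -0.24 ± 0.06 (SE; adjusted p = 0.39, and 0.061 with the block on bright genes, limma). The metalloreductase gene Steap4 differed by 0.07. The ferritin genes Fth1 and Ftl1, which store iron, differed by 0.06 and 0.01, the transferrin receptor Tfrc by -0.14 and Heph, the ferroxidase that works with ferroportin, by 0.04. These last 4 were chosen after their values were seen, and larger rises in the list are not among them. Of the bright iron genes 10 had a higher and 2 a lower mean, where 3582 of 6969 bright genes had a higher one. Aco1 lay highest at 0.16.

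The brush border anion exchangers were both lower on average. Slc26a6 (PAT1), which exchanges chloride for bicarbonate and oxalate, read 10.86, 10.47 and 10.56 on knockout arrays and 11.13, 10.61 and 11.08 on control arrays. It was lower in 3 of 3 pairs, by 0.27, 0.14 and 0.53, although the groups overlapped. The difference was -0.31 (95% interval -0.72 to 0.10, adjusted p = 0.81, limma). With the block and bright genes only, it fell by 0.31 ± 0.08 (SE), 1.24-fold lower (adjusted p = 0.028, limma). This call was lost without the pair numbered 1 (adjusted p = 0.082, limma) or the pair numbered 3 (adjusted p = 0.54, limma). The other probe of Slc26a6 was dim at 7.90 and differed by 0.01. Slc26a3 (DRA), the chloride absorber mutated in congenital chloride diarrhoea in humans, read 8.78, 8.65 and 8.66 in knockout and 8.71, 9.02 and 8.93 in control organoids. Its difference of -0.19 did not pass (95% interval -0.40 to 0.02, adjusted p = 0.74, limma), and 1 of 3 pairs was higher. Further probes of Slc26a3 were dim at 7.87 and 7.82 and differed by 0.01 and -0.007. The other 8 Slc26a genes were not above the upper quartile, and among them the sulfate carrier Slc26a2 read 7.93 ± 0.04 and 7.95 ± 0.01 (knockout and control, SD, n = 3 each).

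Markers of absorptive enterocytes, the cells that carry Slc40a1, Slc26a6 and Slc26a3, were measured for 18 genes, of which 14 lay above the upper quartile. Fabp2, Slc2a5, Slc15a1 and Mep1a did not. The mean level of the 18 was 10.45, 10.39 and 10.60 on knockout arrays and 10.61, 10.35 and 10.70 on control arrays. Of the 18 genes, 13 were lower in the knockout and none passed the test. The 14 bright markers had a median difference of -0.15, with 4 higher and 10 lower, where 3387 of 6969 bright genes were lower. Of these markers 6 were lower and 0 higher in 3 of 3 pairs, where 1219 of 6969 bright genes were lower in all. Their part in the differences of the transporters was not tested. In organoid RNA fewer cells of a type and less RNA per cell cannot be told apart.

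None of the sodium-proton and bicarbonate carriers passed the test. Slc9a3 (NHE3), the main absorber of sodium at the brush border, read 10.26, 10.49 and 10.62 on knockout arrays and 10.53, 10.54 and 10.63 on control arrays. The lowest knockout value came from replicate 1, and the difference was -0.11 (95% interval -0.34 to 0.12), or -0.0095 without that array. Slc9a2, a second epithelial exchanger, read 8.63, 8.75 and 8.88 in knockout and 8.72, 8.54 and 8.95 in control organoids. Its brightest probe differed by 0.02 and the next by -0.15, so its direction depends on the probe. The other 5 Slc9a genes were dim, with Slc9a8 (NHE8) at 8.23 ± 0.06 and 8.16 ± 0.05 (knockout and control, SD, n = 3 each).

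Slc4a4 (NBCe1), which brings bicarbonate in across the basolateral membrane, read 10.55, 10.61 and 10.44 on knockout arrays and 10.41, 10.36 and 10.44 on control arrays. The groups touched at 10.44 without overlapping, and the difference was 0.13 (95% interval 0.01 to 0.25, adjusted p = 0.62, limma). Slc4a2 (AE2), a chloride-bicarbonate exchanger, read 10.86, 10.93 and 10.86 in knockout and 10.84, 10.94 and 10.96 in control organoids, and its 95% interval of -0.13 to 0.06 leaves room only for small differences on this scale. The other 6 Slc4a genes had means at or below 7.97.

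Of the 8 cation-chloride cotransporters, 5 were bright, of which 3 had a higher and 2 a lower mean, and none passed over all genes. Slc12a9, a member of the family whose transport function is not well known, read 9.09, 8.98 and 9.12 on knockout arrays and 8.72, 8.76 and 8.94 on control arrays. All knockout values lay above all control values, as for 6.2% of all genes and 584 of 6969 bright genes. The difference was 0.26 (95% interval 0.09 to 0.43, adjusted p = 0.43, limma). With the block and bright genes only, it rose by 0.26 ± 0.07 (SE), 1.2-fold (adjusted p = 0.046, limma), a call lost without the pair numbered 1 (adjusted p = 0.18) or the pair numbered 3 (adjusted p = 0.15). A dimmer probe of Slc12a9 also differed upward, by 0.05. Slc12a8 read 10.52, 10.63 and 10.63 in knockout and 10.47, 10.39 and 10.51 in control organoids, a difference of 0.14 (adjusted p = 0.60, limma).

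Slc12a2 (NKCC1) is the basolateral cotransporter that feeds chloride secretion and is also used as a marker of crypt base cells. Its brightest probe, at the top of the scale, read 13.80, 14.01 and 14.24 on knockout arrays and 13.73, 13.98 and 13.74 on control arrays, a difference of 0.20 (95% interval -0.11 to 0.51, adjusted p = 0.86, limma). Its second probe, singled out after its values were seen, read 12.95, 13.09 and 13.07 on knockout arrays and 12.74, 12.59 and 12.57 on control arrays. Here the groups stood well apart, and the difference was 0.40 (95% interval 0.26 to 0.54), 1.32-fold on the deposited scale. It did not pass over all 45281 probes (adjusted p = 0.16, and 0.20 with the block, limma), where 0.0883% of probes passed and 6.23% had an unadjusted p under 0.05. The 10 crypt base markers, which include Slc12a2, had mean levels of 9.26, 9.46 and 9.41 on knockout arrays and 9.18, 9.34 and 9.15 on control arrays. The 5 bright ones, Slc12a2 among them, all had higher means, as did 3582 of 6969 bright genes. Their median difference was 0.28, and none passed the test. Of these markers 4 were higher in 3 of 3 pairs, where 1449 of 6969 bright genes were. Their part in the Slc12a2 values was not tested.

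Slc12a3 (NCC), known as the thiazide-sensitive cotransporter of the kidney, read 9.96, 10.08 and 10.03 in knockout and 10.09, 10.14 and 10.15 in control organoids, a difference of -0.10 without overlap (adjusted p = 0.59, limma). Its other 4 probes read 7.81 to 7.89. Slc12a7 (KCC4) read 8.62 ± 0.07 and 8.65 ± 0.03 (knockout and control, SD, n = 3 each).

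**Figure D3:**
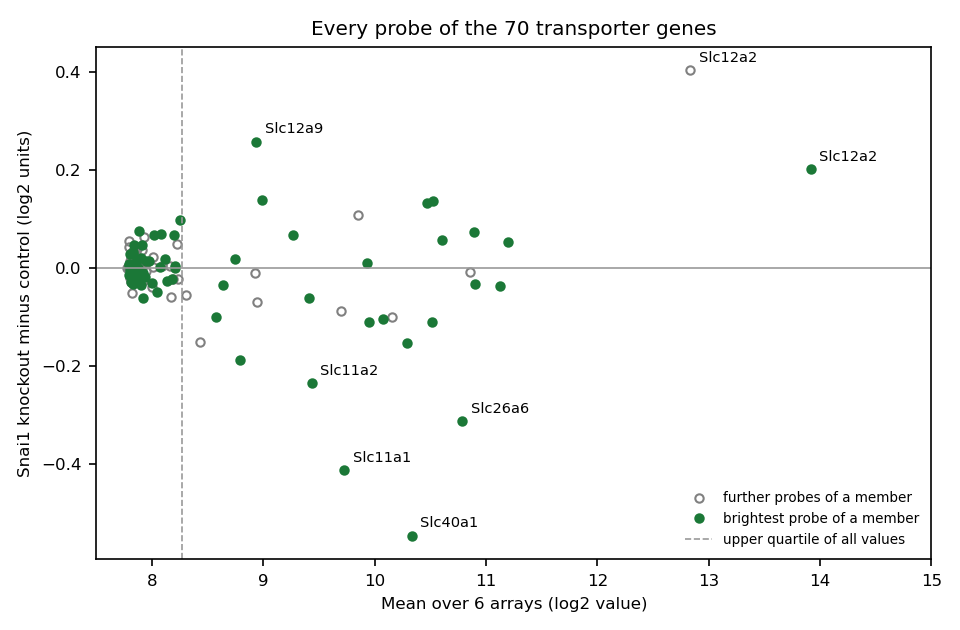
Difference (y axis, log2 units, Snai1 knockout minus control) against mean level over the 6 arrays (x axis, log2 value) for all 151 probes of the 70 transporter genes. Filled points are the brightest probe of each gene and open points its further probes. To the left of the dashed line at 8.27, the upper quartile of all values, differences lie between -0.06 and 0.10, and Slc12a2 is the gene whose further probe stands farthest from 0.

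Zinc importers of the ZIP family showed 10 of 13 members with a higher mean in the knockout, where 9393 of all 19057 genes had one. None passed the test, and the median difference was 0.01. Of the 5 bright ZIP genes 3 had a higher and 2 a lower mean. Slc39a4 (ZIP4), the intestinal zinc importer whose human counterpart is mutated in acrodermatitis enteropathica, read 11.06, 11.26 and 11.36 on knockout arrays and 11.18, 11.04 and 11.30 on control arrays. The groups overlapped fully, and the difference was 0.05 (95% interval -0.18 to 0.29), with its sign turned without control replicate 2 (-0.012) or knockout replicate 3 (-0.013). Slc39a5 (ZIP5), the importer of the basolateral membrane, read 10.35, 10.07 and 10.21 in knockout and 10.42, 10.29 and 10.37 in control organoids. It was lower in 3 of 3 pairs, its difference was -0.15 (95% interval -0.34 to 0.03, adjusted p = 0.77, limma), and its next brightest probes differed by -0.10 and -0.09.

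Slc39a6 (ZIP6) had the smallest p among members with a higher mean. It read 9.06, 9.09 and 9.03 on knockout arrays and 8.96, 8.87 and 8.94 on control arrays, without overlap and with little spread. The difference was 0.14 (95% interval 0.06 to 0.22, adjusted p = 0.35, limma), 1.10-fold on the deposited scale. Slc39a8 (ZIP8), which also carries manganese, lay just under the upper quartile and read 8.30, 8.25 and 8.36 in knockout and 8.24, 8.16 and 8.21 in control organoids. Slc39a7 (ZIP7), which releases zinc from the endoplasmic reticulum, and Slc39a11 differed by 0.06 and -0.04. A second bright probe of Slc39a7 differed by -0.07, so its direction depends on the probe. Slc39a14 (ZIP14) was dim at 8.02 ± 0.06 and 8.07 ± 0.06 (knockout and control, SD, n = 3 each).

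Of the 10 ZnT genes, 4 had a higher and 6 a lower mean, and no pair of groups was separate. Slc30a10, a manganese exporter, read 9.74, 10.07 and 9.86 on knockout arrays and 9.71, 10.12 and 10.18 on control arrays, a difference of -0.11 (95% interval -0.47 to 0.25). Slc30a1 (ZnT1), the zinc exporter of the plasma membrane, read 9.23, 9.25 and 9.41 in knockout and 9.10, 9.43 and 9.16 in control organoids, a difference of 0.07 (95% interval -0.17 to 0.31). Slc30a5 and Slc30a6, which form a pair that supplies zinc to secreted enzymes, differed by 0.07 and -0.06, and Slc30a7 of the Golgi by 0.01. A second bright probe of Slc30a5 differed by -0.008. Slc30a2 (ZnT2), which loads Paneth cell granules with zinc, read 8.12 ± 0.08 and 8.14 ± 0.03 (knockout and control, SD, n = 3 each).

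In a list of zinc and copper genes, none of 10 measured genes passed, and 7 had a lower mean, where 9664 of all 19057 genes had one. Atox1, a copper chaperone, read 11.41, 11.32 and 11.01 in knockout and 11.41, 11.68 and 11.46 in control organoids, and differed by -0.27 ± 0.12 (SE; adjusted p = 0.73, limma). Mtf1, the zinc-sensing transcription factor that activates Slc30a1, read 9.27, 9.23 and 9.07 in knockout and 9.29, 9.49 and 9.29 in control organoids, and differed by -0.16 ± 0.08 (SE; adjusted p = 0.75, limma). The metallothionein gene Mt1, a target of Mtf1 named after its values were seen, differed by 0.01 near the top of the scale.

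Phosphate, calcium and magnesium carriers were mostly dim. None of the 5 phosphate or 3 sodium-calcium carriers lay above the upper quartile. Slc34a2 (NaPi-IIb), the phosphate absorber of the brush border, read 7.90, 7.98 and 7.89 on knockout arrays and 7.81, 7.87 and 7.86 on control arrays, apart but close to the median of the array (difference 0.07, adjusted p = 0.74, limma). Slc20a1 and Slc20a2, the housekeeping phosphate carriers, differed by 0.004 and -0.02, and Slc8a1, a sodium-calcium exchanger, by 0.07. Slc41a2, a magnesium carrier, read 8.65, 8.44 and 8.49 in knockout and 8.74, 8.56 and 8.59 in control organoids. It was lower in 3 of 3 pairs, by 0.08, 0.11 and 0.10 (adjusted p = 0.89, and 0.24 with the block, limma). Slc41a1 was dim and differed by -0.005. Among 15 calcium, phosphate and magnesium genes that are not carriers of these families none passed, with S100g (calbindin-D9k) at -0.11 and Calb1 at -0.05.

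Of channels, pumps and regulators that work with these carriers, none passed over all genes. With the block on bright genes, 1 of 44 partner genes passed, where 3.36% of bright genes did, so the partner genes did not exceed the background. This was Guca2b (uroguanylin), a peptide that drives fluid secretion, which fell by 0.31 ± 0.07 (SE; adjusted p = 0.022, limma). It read 12.26, 12.36 and 12.60 in knockout and 12.72, 12.50 and 12.95 in control organoids, with overlapping groups. The call was lost with the block and an intensity trend (adjusted p = 0.052, limma), and without the pair numbered 3 no partner gene passed. Its relative Guca2a (guanylin), named after its values were seen, differed by 0.21 the other way (adjusted p = 0.10 in that fit, limma). Among 24 channels, pumps and related genes, Fxyd3, a modulator of the sodium pump, read 10.00, 9.99 and 9.97 in knockout and 10.18, 10.12 and 10.26 in control organoids (difference -0.20, adjusted p = 0.26, limma). The sodium pump subunit Atp1b3 differed by 0.12 (adjusted p = 0.35), also without overlap. Of 11 scaffolds and regulators, 9 had a higher mean, where 9393 of all 19057 genes had one. Wnk4, a kinase that controls Slc12a carriers, differed by 0.12 and Ahcyl1 (IRBIT), an activator of Slc4a4, by 0.19 (adjusted p = 0.52 and 0.57, limma).

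**Figure D4:**
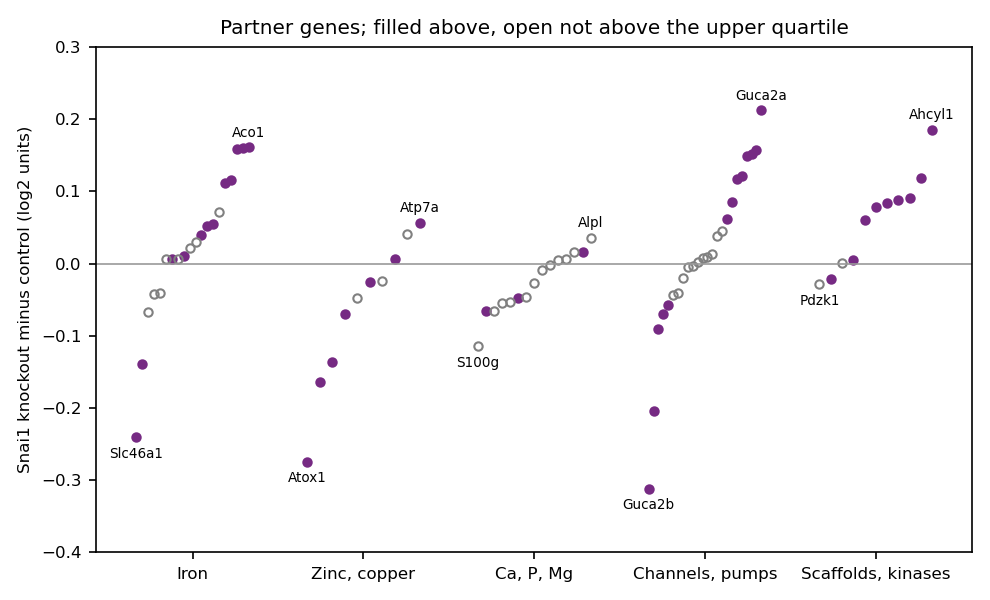
Difference (y axis, log2 units, Snai1 knockout minus control) of the partner genes in 5 lists (x axis), sorted within each list, with the lowest and highest gene named. Filled points lie above the upper quartile and open points do not. Guca2b lies lowest at -0.31 and Guca2a highest at 0.21.

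Differences between replicate numbers were also tested. A test of the number across all genes called no member and no gene (limma F-test, 0% of all genes), while 12 members (17.1%) had an unadjusted p under 0.05, against 12.3% of all genes. Of the bright members 9 (36%) reached that mark, against 30.4% of bright genes. In a fit of bright genes alone 4 of 25 members (16%) passed, against 5.64% of those genes: Slc11a2 (adjusted p = 0.0020), Slc40a1 (0.0068), Slc26a6 (0.016) and Slc30a10 (0.038). The control arrays of Slc11a2 read 9.13, 9.80 and 9.74 by number, a range larger than its difference between genotypes. Slc26a6 was lowest in the arrays numbered 2 in both genotypes, as was the mean of the enterocyte markers. With an intensity-dependent variance over all genes, chosen as an alternative, Slc11a2 and Slc40a1 were called for the number, against 1.45% of genes. With that variance and the block, combined after seeing the data, Slc40a1 and Slc11a1 were called for genotype, against 0.897% of genes. What a number shares is not stated in the labels, and its part in these values was not tested.

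**Figure D5:**
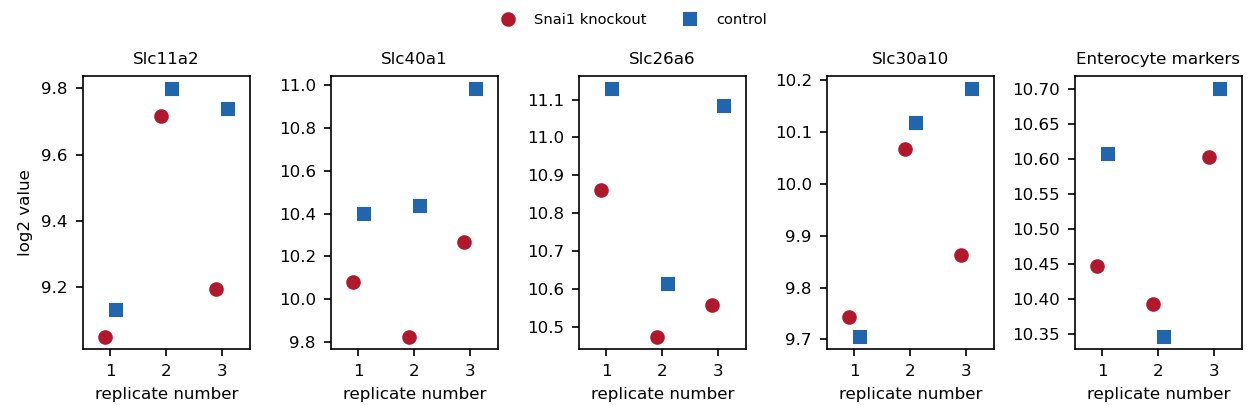
Log2 values (y axis, scaled to each panel) of Slc11a2, Slc40a1, Slc26a6, Slc30a10 and the mean of 18 enterocyte markers by replicate number (x axis), with Snai1 knockout as red circles and control as blue squares. Slc40a1 and Slc26a6 lie lower in the knockout at every number, and Slc11a2 is lowest at number 1 in both groups.

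Because Snail proteins bind the E-box CAGGTG, promoter windows of 300 bases (250 before the start site and 50 after it, RefSeq, GRCm38.p6) were searched for it on both strands. Entries were matched for 54 of the 70 members, giving 68 windows, several genes having more than 1. The letters CAGGTG occurred in 20 member windows (29.4%) and in 6640 of all 32851 windows (20.2%). The core of the metal response element, the site of Mtf1 (TGCACNC or TGCGCNC, either strand), occurred in 27 member windows (39.7%) and in 8444 of all windows (25.7%). A match is a description of letters, not a binding site. Shown are the 250 bases before the start site, 5′ to 3′ on the gene's strand, of the genes called with the block that matched an entry. Slc40a1, also called with the block, had no entry and was not searched, nor were Slc11a2 and Slc12a2. Slc26a3 and Slc39a5, brush border and basolateral carriers with lower means, are added because their stretches hold an E-box. E-boxes also lie before the start site of Slc12a8 and Slc4a4, bright members with higher means, and of Slc12a7, with a lower mean. Those stretches are not shown. Capitals mark E-boxes and metal response cores.
Slc11a1, chr1:74374953-74375202, plus strand: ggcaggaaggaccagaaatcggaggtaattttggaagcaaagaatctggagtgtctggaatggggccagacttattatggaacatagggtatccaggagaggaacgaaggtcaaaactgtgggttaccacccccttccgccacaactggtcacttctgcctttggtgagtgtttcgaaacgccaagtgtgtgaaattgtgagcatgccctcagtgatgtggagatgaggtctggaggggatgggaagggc
Slc26a6, chr9:108853793-108854042, plus strand: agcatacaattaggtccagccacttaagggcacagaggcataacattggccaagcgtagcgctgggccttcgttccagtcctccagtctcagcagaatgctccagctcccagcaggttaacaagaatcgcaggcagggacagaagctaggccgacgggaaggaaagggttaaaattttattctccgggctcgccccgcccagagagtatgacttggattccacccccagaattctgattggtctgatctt
Slc12a9, chr5:137333583-137333832, minus strand: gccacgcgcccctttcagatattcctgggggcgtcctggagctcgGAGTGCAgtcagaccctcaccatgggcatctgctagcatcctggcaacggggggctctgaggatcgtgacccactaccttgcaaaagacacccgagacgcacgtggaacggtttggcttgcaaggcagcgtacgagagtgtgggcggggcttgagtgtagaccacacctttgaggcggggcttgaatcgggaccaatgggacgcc
Slc26a3, chr12:31437969-31438218, plus strand: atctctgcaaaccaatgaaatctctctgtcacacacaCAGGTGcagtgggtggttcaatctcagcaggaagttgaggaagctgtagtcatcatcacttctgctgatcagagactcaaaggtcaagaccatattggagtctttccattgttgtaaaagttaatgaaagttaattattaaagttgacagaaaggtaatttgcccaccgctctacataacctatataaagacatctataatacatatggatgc
Slc39a5, chr10:128401225-128401474, minus strand: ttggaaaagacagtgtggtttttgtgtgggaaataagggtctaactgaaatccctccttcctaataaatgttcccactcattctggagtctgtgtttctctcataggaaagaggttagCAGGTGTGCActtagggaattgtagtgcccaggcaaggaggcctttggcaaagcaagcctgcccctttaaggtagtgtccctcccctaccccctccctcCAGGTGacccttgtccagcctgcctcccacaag
The stretches of Slc11a1 and Slc26a6 hold neither motif, and that of Slc12a9 holds 1 metal response core on the opposite strand. Slc26a3 has 1 E-box and Slc39a5 has 2, the first of which overlaps a metal response core, so that its capitals run on.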

How the data were processed

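The deposited table holds 1 log2 value per probe for 45281 probes on each of 6 Illumina arrays. From the values, the authors had equalised the distributions (sorted arrays differed by at most 0.0019) before they deposited the log2 values; the sources used here do not give the log base, background correction or software. RNA was cleaned on a column with DNase and amplified to biotin-labelled cRNA, per the labels' protocols. The table gives no detection calls, and the number of arrays limits the precision.

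The platform annotation gave 34885 probes 1 gene, 18 several and 10378 none. Each gene was read from its brightest probe by mean over the 6 arrays (19057 genes). All 70 members matched the GRCm38.p6 gene table by gene number with unchanged symbols. Knockout minus control was fitted across all genes with limma 3.58.1 in R 4.3.3 (lmFit, eBayes, Benjamini-Hochberg, threshold 0.05). A fit with the replicate number as a block, a filter at the upper quartile, other normalizations, probe averaging, variance models, array weights and leaving out arrays were alternatives. The replicate number was tested with limma's F-test beside the group. The limma fits were tested on simulated data.

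Deviations from group means correlated at 0.35, 0.33 and 0.46 for equal numbers and at -0.33 to 0.0026 for unequal ones. This is why pairs are shown and blocked fits given, while the main fit has no pairing. Members and lists were chosen with earlier results of these data known. Members named are those fixed by role in the intestine, the 6 of lowest p in each direction, the 6 of lowest p for the replicate number and any called in any fit, with 2 of lowest p and any called per partner list. The other bright members (Slc30a5, Slc30a6, Slc30a7, Slc39a7 and Slc39a11) fall outside this rule and were added after their values were seen, so that all 25 appear. Members shown for a further probe, and others so marked, were chosen after their values were seen.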

Additional observations from a re-analysis of the deposited data

How the results depend on the processing

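No gene among the transporters passed over all genes with limma in the fit as designed (8 at an unadjusted p under 0.05), nor with the block alone, repeated quantile normalization, centring on bright probes, bright genes only, probe averaging, trend, robust variances or array weights. With the replicate block and only bright genes the counts were 4 members, 1 partner gene and 234 genes in all. With the block and an intensity trend, chosen after seeing the data, they were 2 members (Slc40a1, adjusted p = 0.00036, and Slc11a1, 0.0029) and 171 genes. Over all genes the count was 25 as designed, 9 with the block, 41 with bright genes only and 60 with a trend. Leaving out each array gave 4 to 23 genes, no member and no partner gene. Leaving out pair 1, 2 or 3 in the blocked fit of bright genes, also added after seeing the data, gave 220, 248 and 106 genes, 2, 6 and 2 members, and 1, 1 and 0 partner genes. The 6 members without pair 2 included Slc11a2 (adjusted p = 0.012, limma) and Slc12a2 (0.029), which passed in no other fit. In that blocked fit Slc40a1 passed without each pair in turn (adjusted p = 0.00092, 2.4e-07 and 0.0012), as did Slc11a1 (0.0068, 0.0019 and 0.011). With so few arrays left, limma takes most of each gene's variance from the other bright genes. The p-values of fits without a pair therefore measure little of a gene's own spread and do not show that a call is stable. For the replicate number, the counts were 393 genes and 4 members among bright genes only and 277 genes and 2 members with a trend, against 0 as designed. The cause was not tested.

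Of 31 named results (30 genes and a second Slc12a2 probe), 24 kept their direction in all alternatives. Signs turned for differences near 0. With all probes averaged, Slc9a2 was at -0.043 and Slc20a1 at -0.0060. Leaving out each array, Slc9a2 ranged from -0.081 to 0.12, Slc39a4 from -0.013 to 0.14, Slc20a1 from -0.063 to 0.081, Slc12a7 from -0.065 to 0.0061, Slc30a2 from -0.066 to 0.0094 and Slc41a1 from -0.018 to 0.0029. Without a pair in the blocked fit of bright genes, Slc9a2 was at -0.078 and Slc39a4 at -0.028 (without number 2), and Slc12a7 at 0.012 and Slc30a1 at -0.022 (without number 3). With probes averaged, Slc40a1 differed by -0.28 and Slc11a1 by -0.098, since the dim probes of each enter the mean. Low values are compressed, which limits what the 45 dim members can show.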
